A study of Homo sapiens with 9 samples.

Results

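The metallothionein genes of U251 glioblastoma cells were followed together with MTF1 and SLC30A1 after knockdown of PTBP1. The 9 genes (MT1E, MT1F, MT1G, MT1M, MT1X, MT2A, MT3, MTF1 and SLC30A1) were taken from the deposited FPKM table by their symbols, out of 22295 entries, and each of the 9 had a row. U251 is an established human glioblastoma line, and PTBP1 is an RNA-binding protein that represses neuronal splicing. Total RNA was sequenced from 3 groups of 3 libraries each. The sh-Luci-3d cells carried a lentiviral hairpin against luciferase for 3 days post infection (dpi), the sh-PTBP1-3d cells (sh-Ptbp1 in the labels) a lentiviral hairpin against PTBP1 for 3 dpi, and the sh-PTBP1-7d cells the same for 7 dpi. All groups were thus infected cells of 1 line, and no group held sh-Luci cells at 7 dpi. In the study's reprogramming scheme the cells were moved, after infection and before 3 dpi, to a neuronal induction medium with N2, B27, forskolin and dorsomorphin. The labels do not say whether the sequenced cells were moved. Day, length of knockdown and any time in that medium cannot be told apart in the sh-PTBP1-7d libraries. The labels do not say whether the 3 libraries of a group came from separate cultures, so p-values measure the spread between these libraries, which may be technical.

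Metallothioneins are very small proteins that hold zinc and copper through many cysteine residues, and their genes lie side by side on chromosome 16. MT2A and the MT1 genes are expressed in many tissues and are induced by zinc, cadmium, glucocorticoids and cytokines, whereas MT3 is best known from the brain. MTF1 is the zinc-sensing transcription factor that binds metal response elements (MREs) in the promoters of metallothionein genes and of SLC30A1, which encodes the zinc exporter ZnT1 of the plasma membrane. In glia, metallothioneins take part in zinc buffering and in the handling of oxidants.

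The coding sequences of the metallothionein members show how alike these genes are, which matters for counting their reads. They are shown for the 3 members with a level above 0 in every library (MT2A, MT1X and MT1F) and for MT1E as an example of those listed at 0. Each was spliced from 3 coding exons of the GENCODE v29 annotation (GRCh38) on the plus strand of chromosome 16, with the first and last coding base at chr16:56608656-56609354 for MT2A, chr16:56682541-56684049 for MT1X, chr16:56658059-56659164 for MT1F and chr16:56625852-56626971 for MT1E. Capitals mark the in-frame cysteine codons.
MT2A: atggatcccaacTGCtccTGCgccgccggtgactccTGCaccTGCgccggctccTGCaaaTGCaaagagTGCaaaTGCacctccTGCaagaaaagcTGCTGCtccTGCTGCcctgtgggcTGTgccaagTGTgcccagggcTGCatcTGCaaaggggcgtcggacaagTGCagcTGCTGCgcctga
MT1X: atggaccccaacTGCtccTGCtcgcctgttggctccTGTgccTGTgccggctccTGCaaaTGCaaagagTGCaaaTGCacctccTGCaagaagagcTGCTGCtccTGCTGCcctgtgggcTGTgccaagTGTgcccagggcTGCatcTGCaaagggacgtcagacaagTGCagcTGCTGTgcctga
MT1F: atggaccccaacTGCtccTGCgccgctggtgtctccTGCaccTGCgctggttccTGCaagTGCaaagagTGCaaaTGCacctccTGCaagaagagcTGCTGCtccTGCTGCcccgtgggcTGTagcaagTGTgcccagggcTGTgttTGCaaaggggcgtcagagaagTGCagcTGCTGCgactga
MT1E: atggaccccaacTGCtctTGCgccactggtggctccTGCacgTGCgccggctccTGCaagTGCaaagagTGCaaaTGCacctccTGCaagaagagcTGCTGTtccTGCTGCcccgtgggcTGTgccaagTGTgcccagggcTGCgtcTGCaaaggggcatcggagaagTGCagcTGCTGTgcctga

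MT2A, MT1X, MT1F, MT1E and MT1M each had 186 coding bases with 20 cysteine codons among 61 (32.8%). MT1G had 1 codon more, with the same 20 cysteine codons among 62. The 10 pairs of equal length were 88.7% to 92.5% identical. Of all windows of 50 bases along its annotated transcript, MT2A shared 4.88% and MT1F 3.59% with a transcript of another gene. Those other genes were all metallothionein genes or pseudogenes. MT1X shared 45.1%, with family members and with AC026461.1, a gene that overlaps it on the same strand. How reads were divided among such copies is not given in the sources used here, so the levels of MT1X in particular, and of the family in general, are uncertain to that extent.

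Upstream sequence was available for 4 of the 9 members, as windows from 250 bases before to 50 bases after the RefSeq start of the gene (GRCh38.p14). These windows are shown because MTF1 reads MREs there. They lie at chr16:56608334-56608633 (plus strand) for MT2A, chr16:56682220-56682519 (plus strand) for MT1X, chr1:211579112-211579411 (minus strand) for SLC30A1 and chr1:37859543-37859842 (minus strand) for MTF1. Capitals mark the MRE core, searched on both strands as TGCACNC or TGCGCNC, so that a match on the opposite strand reads GNGTGCA or GNGCGCA.
MT2A: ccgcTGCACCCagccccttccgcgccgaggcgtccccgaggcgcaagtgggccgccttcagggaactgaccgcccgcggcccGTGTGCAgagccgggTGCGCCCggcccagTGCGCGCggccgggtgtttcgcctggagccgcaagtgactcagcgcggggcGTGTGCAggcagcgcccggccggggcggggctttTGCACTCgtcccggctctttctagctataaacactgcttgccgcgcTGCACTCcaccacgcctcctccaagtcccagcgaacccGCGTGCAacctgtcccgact
MT1X: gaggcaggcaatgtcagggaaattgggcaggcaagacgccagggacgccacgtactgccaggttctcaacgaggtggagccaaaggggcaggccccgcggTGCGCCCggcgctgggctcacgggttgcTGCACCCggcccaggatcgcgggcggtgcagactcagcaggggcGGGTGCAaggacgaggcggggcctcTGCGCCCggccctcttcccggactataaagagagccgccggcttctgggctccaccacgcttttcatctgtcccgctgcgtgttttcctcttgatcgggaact
SLC30A1: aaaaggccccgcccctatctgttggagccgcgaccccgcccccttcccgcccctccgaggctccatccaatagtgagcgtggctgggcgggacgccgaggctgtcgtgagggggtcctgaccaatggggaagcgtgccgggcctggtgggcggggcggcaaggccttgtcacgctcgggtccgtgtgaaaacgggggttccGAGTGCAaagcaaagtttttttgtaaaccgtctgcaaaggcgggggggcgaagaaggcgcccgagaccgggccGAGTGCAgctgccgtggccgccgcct
MTF1: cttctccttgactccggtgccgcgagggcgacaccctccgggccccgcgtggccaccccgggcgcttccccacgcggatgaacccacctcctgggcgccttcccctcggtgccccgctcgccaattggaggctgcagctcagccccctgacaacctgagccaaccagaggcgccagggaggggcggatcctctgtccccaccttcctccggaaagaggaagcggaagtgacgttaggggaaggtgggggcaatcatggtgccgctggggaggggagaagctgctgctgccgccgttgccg

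The MT2A window held 8 MRE cores, a number reached by 0.022% of 27305 RefSeq windows of the same length. The MT1X window held 4, as at least 4 occurred in 0.593% of windows. SLC30A1 held 2 (at least 2 in 8.59% of windows), at 49 to 43 bases before the RefSeq start and 24 to 30 bases after it. The SLC30A1 window lies wholly upstream of the gene as placed in GENCODE v29, where it starts at chr1:211578742. MTF1 held 0, with at least 1 in 29.3% of windows. No MRE cores overlapped each other, and 1 in MT1X overlapped a GGGCGG box by its first 2 bases. Both MT2A and MT1X carried the letters TATAAA, which 12% of windows did, 29 and 30 bases before the start. A pair of GAAA boxes set 2 bases apart, part of the interferon-stimulated response element, was in none of the 4 windows and in 3.65% of all windows. Among metallothionein genes listed at 0 in these cells, the MT1H window also held 8 MRE cores, and those of MT1B and MT4 held 3 each. The number of MRE cores in a window is a count of letters, and binding was not measured.

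**Figure D1:**
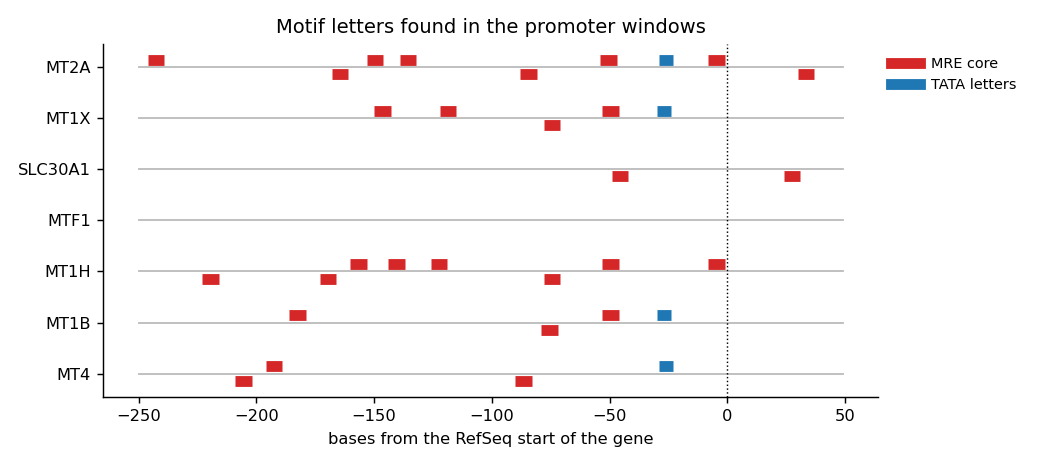
Positions of the MRE core (red) and TATAAA letters (blue) in the promoter windows of 4 members and of MT1H, MT1B and MT4, in bases from the RefSeq start (dotted line). Marks above a line lie on the strand of the gene and marks below it on the opposite strand. MT2A and MT1H hold 8 MRE cores each, MT1X 4, SLC30A1 2 and MTF1 0.

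PTBP1 itself checked the labels. It was listed at 111, 112 and 124 FPKM in sh-Luci-3d, at 66.2, 64.4 and 61.0 in sh-PTBP1-3d, and at 49.7, 50.7 and 51.0 in sh-PTBP1-7d. The FPKM values of a library summed to between 367412 and 404922, and the number of reads behind them is unknown. Of the glial and glioma markers, VIM (4088 to 4488 FPKM at 3 dpi and 1094 to 1249 at 7 dpi) and SOX2 (94.6 to 149) were high. GFAP, a defining astrocyte marker, was at most 1.15 FPKM and S100B at most 0.933. In sh-PTBP1-7d over sh-PTBP1-3d, 1 of these 8 markers (S100B) was called higher and 2 lower (VIM and CD44). Of all entries, 14.2% were called in that comparison. CD44 fell from a mean of 166 to 62.3 FPKM. The sum of the 8 markers, mostly VIM, was 4468 to 4887 FPKM at 3 dpi and 1392 to 1513 at 7 dpi. The sum of the 7 neuronal markers was mostly TUBB3. It was 265 to 316 FPKM in sh-Luci-3d, 335 to 356 in sh-PTBP1-3d and 158 to 165 in sh-PTBP1-7d. In sh-PTBP1-7d over sh-PTBP1-3d, 0 of 6 tested were called higher. TUBB3, which fell from a mean of 317 to 118 FPKM, was called lower. MAP2 was higher by 0.94 on the log2 scale and passed the FDR and not the fold. In sh-PTBP1-7d against sh-Luci-3d, 1 neuronal marker was called higher and 1 lower, beside 14.6% of all entries called in either direction. SNAP25 had means of 1.27 FPKM in sh-Luci-3d, 2.68 in sh-PTBP1-3d and 4.32 in sh-PTBP1-7d. These markers moved in the same libraries as the metallothioneins, and their part in the results at 7 dpi was not tested. The 7 blood and immune markers summed to 0.107 to 0.354 FPKM in every library, with CD3E and AIF1 at 0 in both sh-PTBP1 groups. The 4 epithelial markers summed to 30.4 to 45.9 FPKM, nearly all KRT8 and KRT18. One library stood apart, the sh-PTBP1-3d replicate 3, with 11.5 FPKM of the neuronal gene STMN2 against 0 in the other 8 libraries and 2.14 FPKM of DCX against at most 0.0346. Without this library, the calls and directions of the 5 members above 0 in every library were as with it.

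MT2A was the most abundant member in every library, and MT1X and MT1F followed among the metallothioneins. MT2A, the metallothionein most widely used by human cells, was listed at 828, 1040.2 and 917 FPKM in sh-Luci-3d, which gave a mean of 929 ± 106 (SD, n = 3). In sh-PTBP1-3d it was listed at 758, 787 and 887 FPKM (mean 811 ± 67.6 SD, n = 3). In sh-PTBP1-7d it was listed at 1729, 1931 and 2266 FPKM (mean 1975 ± 271 SD, n = 3). The 7 dpi libraries were all above the 6 libraries of 3 dpi, whose 2 groups overlapped. In rank among the entries with a symbol, MT2A stood between 37 and 61 at 3 dpi and between 16 and 17 at 7 dpi.

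MT1X, at the end of the cluster nearest NUP93, was listed at 54.6, 66.5 and 58.1 FPKM in sh-Luci-3d (mean 59.7 ± 6.13 SD, n = 3). The sh-PTBP1-3d libraries had 48.1, 49.5 and 62.6 FPKM (mean 53.4 ± 8.02 SD, n = 3), and the sh-PTBP1-7d libraries 149, 175 and 240.2 FPKM (mean 188 ± 47.1 SD, n = 3). As for MT2A, the lowest 7 dpi library was above the highest library of 3 dpi, and replicate 3 was the highest of its group in both sh-PTBP1 groups.

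MT1F was listed at 10.6, 8.29 and 9.87 FPKM in sh-Luci-3d (mean 9.58 ± 1.18 SD, n = 3). It was listed at 5.62, 8.07 and 10.6 FPKM in sh-PTBP1-3d (mean 8.09 ± 2.49 SD, n = 3) and at 32.6, 37.0 and 39.0 FPKM in sh-PTBP1-7d (mean 36.2 ± 3.25 SD, n = 3). The sh-PTBP1-3d libraries spread more widely than those of sh-Luci-3d and overlapped them, while the 7 dpi libraries lay far above both.

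MT1E, MT1G and MT1M were listed at 0 in all 9 libraries. So were MT1A, MT1B, MT1H and MT4, which were not among the 9 genes. In the table, 2655 entries were listed at 0 throughout, whereas 0 of 20 genes used by every cell were at 0 in any library (lowest value 5.41 FPKM). An exact 0 in a table without counts does not show that no read was present, and no fold was computed for these genes.

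MT3 was listed at 1.01 FPKM in the sh-PTBP1-3d replicate 3 and at 0 in the other 8 libraries. It passed the filter on low values through that single library, the same one that held STMN2 and DCX. No fold is given for MT3, and the part of that library's other neuronal RNA in its value was not tested.

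The zinc sensor MTF1 was listed at 3.46, 3.65 and 3.10 FPKM in sh-Luci-3d (mean 3.40 ± 0.282 SD, n = 3) and at 3.39, 3.07 and 3.28 FPKM in sh-PTBP1-3d (mean 3.25 ± 0.161 SD, n = 3). The 7 dpi libraries had 6.36, 6.07 and 4.88 FPKM (mean 5.77 ± 0.781 SD, n = 3). All 3 were above the 3 dpi libraries, and replicate 3, which was the highest for the metallothioneins, was the lowest for MTF1.

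The zinc exporter SLC30A1 was listed at 16.2, 16.3 and 14.8 FPKM in sh-Luci-3d (mean 15.7 ± 0.833 SD, n = 3), and at 16.1, 16.7 and 16.1 FPKM in sh-PTBP1-3d (mean 16.3 ± 0.384 SD, n = 3). In sh-PTBP1-7d it was listed at 15.1, 14.4 and 12.5 FPKM (mean 14.03 ± 1.37 SD, n = 3). The 7 dpi libraries lay below those of sh-PTBP1-3d and overlapped those of sh-Luci-3d.

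**Figure D2:**
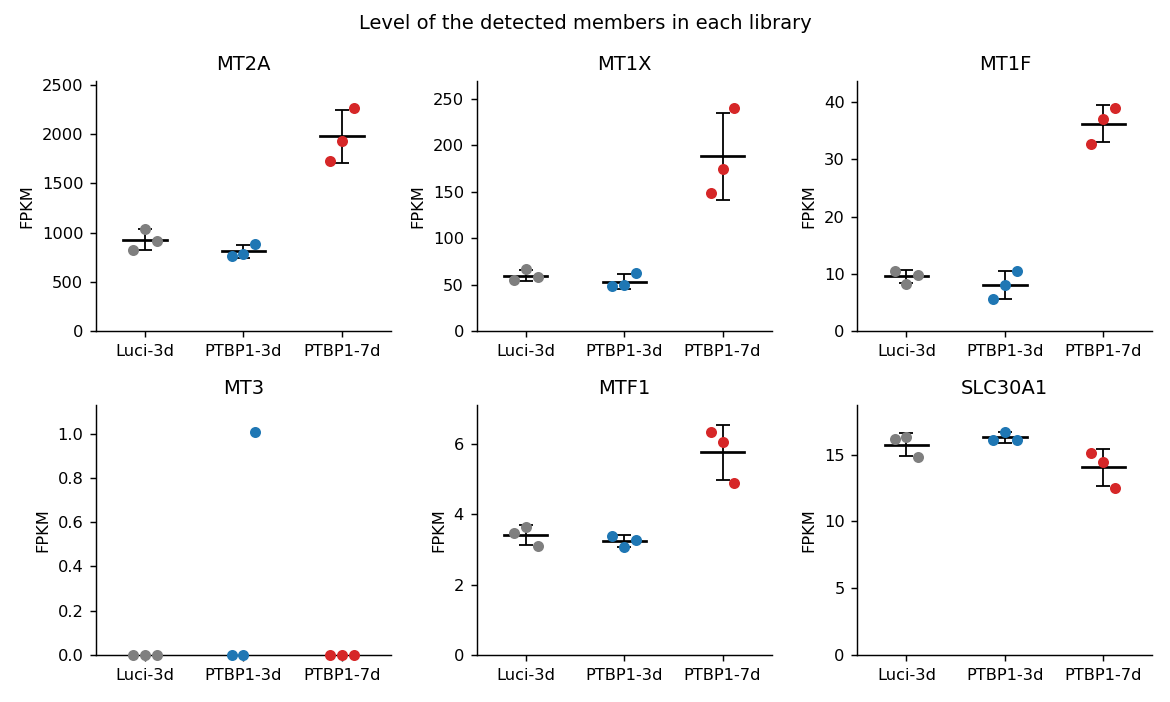
FPKM of the 6 members above 0 in any library, on a linear axis from 0 for each gene. Points are the 3 libraries of each group (replicates 1 to 3 from left to right), and bars are the mean and SD, which are left out for MT3. MT2A, MT1X, MT1F and MTF1 are higher in every 7 dpi library, MT3 is above 0 in 1 library, and SLC30A1 stays between 12.5 and 16.7 FPKM.

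The order of the levels as listed in FPKM, which is per length of transcript, was the same in all 6 libraries of 3 dpi. How shared reads were divided among the metallothioneins is not known, so this order holds for the listed values only. MT2A came first, then MT1X, SLC30A1, MT1F and MTF1, and no neighbours in this order overlapped within a group. At 7 dpi MT1F stood above SLC30A1 in each of the 3 libraries. The ratio of MT1F to SLC30A1 was 0.509 to 0.668 in sh-Luci-3d, 0.350 to 0.659 in sh-PTBP1-3d and 2.15 to 3.12 in sh-PTBP1-7d. The 3 detected metallothioneins together made up 0.231% to 0.287% of all FPKM in sh-Luci-3d, 0.201% to 0.248% in sh-PTBP1-3d and 0.520% to 0.672% in sh-PTBP1-7d. In bulk RNA, a change in the number of cells that express a gene and a change in its RNA per cell cannot be told apart.

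The comparison of sh-PTBP1-3d with sh-Luci-3d asked what 3 days of PTBP1 knockdown did to these genes. None of the members changed by the test. The log2 fold changes on the log2(FPKM + 0.1) scale, with 95% intervals, were -0.19 (-0.47 to 0.08) for MT2A, -0.17 (-0.53 to 0.20) for MT1X and -0.28 (-0.71 to 0.15) for MT1F. For MTF1 the value was -0.06 (-0.35 to 0.22), and for SLC30A1 it was 0.05 (-0.15 to 0.25). These intervals leave out a doubling or a halving of each of the 5 genes. Adjusted p-values (limma, Benjamini-Hochberg over 15551 entries) were 0.785 to 0.93 for the 6 members tested. A gene was called when the false discovery rate (FDR) was below 0.05 and the fold above 2, which 0 of 6 members and 0.0129% of all entries met. By FDR alone the counts were 0 members and 0.0322% of entries, and at an unadjusted p below 0.05 they were 0 members and 7.24% of entries. All 6 members overlapped between the groups, while 10.8% of entries did not. The targeted gene PTBP1 differed by -0.85 (-1.01 to -0.69, limma adjusted p 0.00314), which passed the FDR and not the fold.

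From sh-PTBP1-3d to sh-PTBP1-7d, the 3 detected metallothioneins rose together. MT1F rose by 2.19 (SE 0.192, 95% interval 1.77 to 2.62) on the log2(FPKM + 0.1) scale, with a limma adjusted p of 5.68e-06. MT1X rose by 1.79 (SE 0.165, 1.43 to 2.16, limma adjusted p 8.25e-06). MT2A rose by 1.28 (SE 0.125, 1.0 to 1.56, limma adjusted p 1.26e-05). All 3 were higher in 3 of 3 libraries than any library of sh-PTBP1-3d. The least abundant of the 3 thus had the largest log2 difference and the most abundant the smallest.

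For these 7 dpi comparisons, a gene was called when the FDR was below 0.01 and the fold above 2. By that rule 3 of the 6 members tested were called, all higher, where 14.2% of all entries were called in either direction and 8.31% were called higher. MTF1 was higher by 0.80 (SE 0.127, 0.52 to 1.08, limma adjusted p 0.000406), which passed the FDR and not the fold. With it, 4 of 6 members passed by FDR alone, against 35.8% of entries. SLC30A1 differed by -0.22 (SE 0.0906, -0.42 to -0.02), and its limma adjusted p of 0.0683 did not pass. With values divided by median-ratio size factors, SLC30A1 differed by -0.30 and passed the FDR (limma adjusted p 0.00844), and its adjusted p ranged from 0.00844 to 0.354 over the 21 alternatives. The groups did not overlap for 5 of 6 members, SLC30A1 included, a state that 62.3% of entries shared. The median log2 difference of all entries was 0.09.

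Against sh-Luci-3d, a comparison that shares its 7 dpi libraries with the one above, MT1F differed by 1.91 (1.49 to 2.34), MT1X by 1.63 (1.26 to 1.99) and MT2A by 1.09 (0.81 to 1.36). Their limma adjusted p-values were 1.52e-05, 1.63e-05 and 4.14e-05. MTF1 was higher by 0.74 (0.46 to 1.02, limma adjusted p 0.000683), and SLC30A1 differed by -0.17 (-0.37 to 0.03, limma adjusted p 0.148). Again 3 of 6 members were called, all higher, beside 14.6% of entries in either direction and 8.93% higher. By FDR alone it was 4 of 6, beside 35.6% of entries, and 4 of 6 did not overlap, beside 55.9%. The call of MT2A rested on the fold threshold, since it was at 0.98 without the sh-PTBP1-7d replicate 3 and at 0.99 with median-ratio size factors, both just under a fold of 2.

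**Figure D3:**
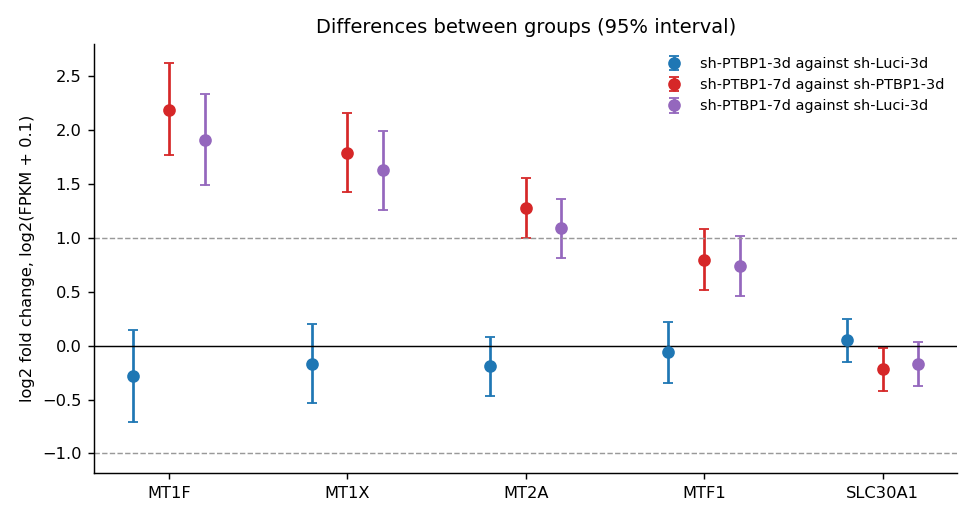
Differences of the 5 members above 0 in every library, as log2 fold changes on the log2(FPKM + 0.1) scale with 95% intervals, in the 3 comparisons. Dashed lines mark a fold of 2 in either direction. MT1F (2.19), MT1X (1.79) and MT2A (1.28) lie above the upper line at 7 dpi against sh-PTBP1-3d, and all 5 intervals of the 3 dpi comparison span 0.

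The proportions of the metallothioneins were compared within each library, from the levels as listed. In each library, MT2A was 15.2 to 15.8 times MT1X in sh-Luci-3d, 14.2 to 15.9 times in sh-PTBP1-3d and 9.44 to 11.6 times in sh-PTBP1-7d. The ratio of MT2A to MT1F was 78.3 to 126 in sh-Luci-3d, 83.8 to 135 in sh-PTBP1-3d and 52.2 to 58.2 in sh-PTBP1-7d. Both ratios were lower in every 7 dpi library than in any library of 3 dpi. In a 2-sided exact permutation test of the log2 ratio, each gave p = 0.1 against either group, the smallest that 3 against 3 libraries allow, and an adjusted value of 0.2 over 12 such tests. The ratio of MT1X to MT1F overlapped between the groups (exact permutation p = 0.3 against sh-PTBP1-3d, adjusted 0.4). The zinc exporter and the zinc sensor were compared in the same way. SLC30A1 was 4.46 to 4.78 times MTF1 in sh-Luci-3d, 4.74 to 5.44 times in sh-PTBP1-3d and 2.38 to 2.56 times in sh-PTBP1-7d. This ratio, too, gave an exact permutation p of 0.1 at 7 dpi against either group (adjusted 0.2).

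The metallothionein cluster covers chr16:56565049-56684196 in GRCh38, from MT4 to MT1X. MT3 (chr16:56589074-56591088), MT2A (chr16:56608199-56609497), MT1E (chr16:56625475-56627112), MT1M (chr16:56632233-56633986), MT1F (chr16:56657694-56660698) and MT1X (chr16:56682424-56684196) lie on the plus strand and MT1G (chr16:56666731-56668065) on the minus strand. MTF1 (chr1:37809567-37859620) and SLC30A1 (chr1:211571568-211578742) lie far apart on the minus strand of chromosome 1. Genes with a measured rise were therefore interleaved with genes listed at 0. MT1E, MT1M, MT1A and MT1B, all at 0, lie between MT2A and MT1F, and MT1G and MT1H lie between MT1F and MT1X.

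The nearest measured genes on either side of the cluster were not called higher. BBS2, a subunit of the ciliary BBSome on the side of MT4, was listed at a mean of 19.1 FPKM in sh-PTBP1-3d and 18.3 in sh-PTBP1-7d, a log2 difference of -0.05 (-0.22 to 0.12). NUP93, a nuclear pore protein on the side of MT1X, was at 13.6 and 10.7 FPKM, a log2 difference of -0.34 (-0.53 to -0.15, limma adjusted p 0.00663). Of 12 neighbouring genes in all, 11 were tested, 3 were called higher and 0 lower, and their median difference was 0.23. Among all entries, 8.31% were called higher. The 3 neighbours called were NLRC5 at 2.16, a regulator of MHC class I genes, CETP at 1.67, a lipid transfer protein at a mean of 0.566 FPKM in sh-PTBP1-7d, and HERPUD1 at 1.07, a protein of the endoplasmic reticulum stress response. These 3 genes start 324 to 381 kb from the start of MT2A.

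Zinc transporters were compared as the other genes of the pathway. SLC30 proteins move zinc out of the cytosol and SLC39 proteins into it. Of 9 other SLC30 genes listed, 6 were tested for sh-PTBP1-7d over sh-PTBP1-3d. Of these, 1 was called higher and 0 lower, with a median difference of 0.57, where 8.31% of all entries were called higher. SLC30A4, a transporter of endosomal membranes, had 1.48, 1.29 and 1.43 FPKM in sh-PTBP1-3d and 3.12, 3.05 and 2.61 FPKM in sh-PTBP1-7d, a log2 difference of 1.01 (limma adjusted p 0.000392). SLC30A5 (0.78) and SLC30A7 (0.52), transporters of the secretory pathway, passed the FDR and not the fold. Against sh-Luci-3d, 0 of the 6 were called, and SLC30A4, at 0.85, passed the FDR and not the fold. SLC30A2, a vesicular transporter known as a target of MTF1, was listed at 0 in all 9 libraries.

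Of 14 SLC39 genes listed, 10 were tested, 2 were called higher and 0 lower, with a median difference of 0.24. The share of all entries called higher was again 8.31%. SLC39A6 had 11.3, 10.9 and 10.8 FPKM in sh-PTBP1-3d and 29.6, 33.2 and 29.4 FPKM in sh-PTBP1-7d, a rise of 1.47 (limma adjusted p 1.57e-06). SLC39A7, which releases zinc from the endoplasmic reticulum, rose by 1.01 (limma adjusted p 1.42e-05), from a mean of 45.0 to 91.3 FPKM. SLC39A10, an importer known to be repressed by MTF1, went the other way, from a mean of 6.49 to 3.55 FPKM (log2 difference -0.87, limma adjusted p 0.00237), and passed the FDR and not the fold. SLC39A1, the most abundant importer in sh-PTBP1-3d, was at means of 60.7 and 60.5 FPKM. Among the tested transporters of both families, SLC30A1 was thus 1 of the genes that did not pass the FDR. Against sh-Luci-3d, 1 of the 10 tested SLC39 genes was called higher and 0 lower, where 8.93% of all entries were called higher.

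**Figure D4:**
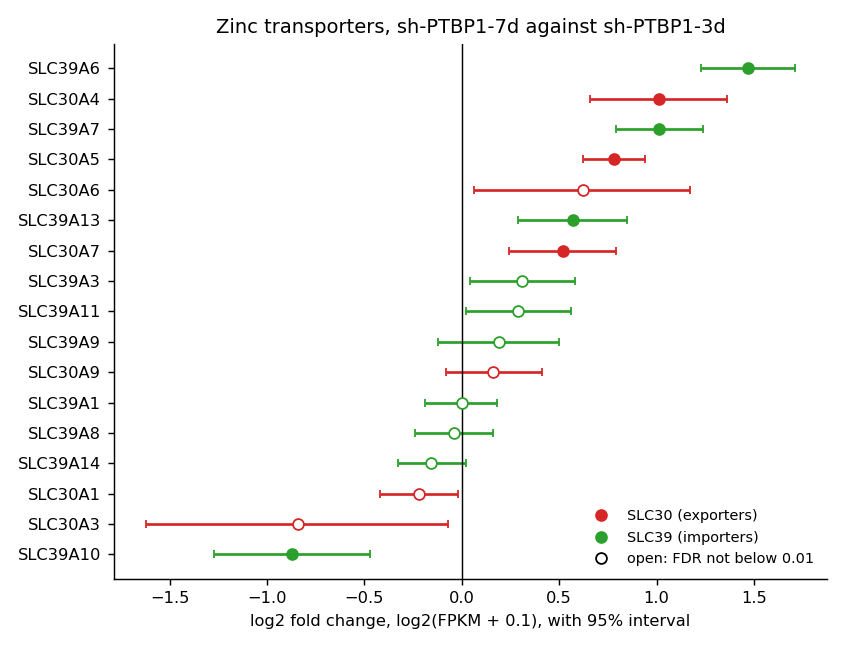
Log2 fold change of sh-PTBP1-7d over sh-PTBP1-3d on the log2(FPKM + 0.1) scale, with 95% intervals, for SLC30A1 and the other tested SLC30 (red) and SLC39 (green) genes. Filled points passed an FDR of 0.01. SLC39A6 is highest at 1.47, SLC39A10 lowest at -0.87, and SLC30A1 lies at -0.22.

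Genes that respond to the other known inducers of metallothioneins were read in the same comparison. Of 11 metal and oxidant stress genes, 0 were called higher and 3 lower, with a median difference of -0.38. Of all entries, 14.2% were called in either direction and 8.31% higher. HMOX1, the heme oxygenase induced by heavy metals and oxidants, had 23.1, 22.2 and 23.2 FPKM in sh-PTBP1-3d and 9.54, 8.24 and 6.68 FPKM in sh-PTBP1-7d (log2 difference -1.49, limma adjusted p 2.21e-05). SLC7A11, the cystine importer, fell by 1.82 on the log2 scale (limma adjusted p 5.63e-06), and TXNRD1, the cytosolic thioredoxin reductase, fell by 1.11 (limma adjusted p 9.39e-07). The 3 metallothioneins called were thus higher at 7 dpi, and the 3 stress genes called were lower. The heat shock genes HSPA1A (0.26) and HSPA1B (0.24) did not pass the test.

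Of 11 copper handling genes, 0 were called higher and 1 lower, with a median of -0.07, beside 14.2% of all entries called in either direction. The gene called was COX17, a copper chaperone of mitochondria, at -1.37 (limma adjusted p 3.02e-07). SLC31A1, the copper importer of the plasma membrane, was higher by 0.71 on the log2 scale. SOD1, the copper and zinc superoxide dismutase, was at -0.48. Both passed the FDR and not the fold.

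Of 10 glucocorticoid-response genes listed, 9 were tested, and 3 were called higher and 0 lower, with a median of 0.28. Beside this list and the next, 8.31% of all entries were called higher. CEBPD (1.45), DUSP1 (1.09) and KLF9 (1.0), which also respond to other stimuli, were the 3 called, whereas FKBP5 (-0.52) and SGK1 (-0.65) passed the FDR in the other direction. Of 10 interferon-response genes, 9 were called higher and 0 lower, with a median of 2.25, and the exception, IRF9, was higher by 0.86 and passed the FDR alone. The largest log2 differences were those of IFI6 (3.81), IFI27 (3.13), OAS1 (2.79) and MX1 (2.5). IFI6, for example, had 780, 748 and 860 FPKM in sh-PTBP1-3d and 11651, 11244 and 10580 FPKM in sh-PTBP1-7d. The 3 metallothioneins, at 1.28 to 2.19, lay below this median in the same libraries, and the part of the interferon response in their levels was not tested.

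In the comparison of sh-PTBP1-3d with sh-Luci-3d, 0 genes of these 7 lists were called, beside 0.0129% of all entries.

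The entries whose profile over the 9 libraries was most like that of MT2A were sought among 11337 entries outside the family with a symbol and a mean of at least 1 FPKM, by Pearson's r of log2(FPKM + 0.1). They were IFIT1 (r = 0.990), USP18 (0.987), MAGED1 (0.987), PARP12 (0.986) and PRR3 (0.986), of which IFIT1, USP18 and PARP12 are interferon-stimulated genes. IFIT1 was listed at 108, 174 and 124 FPKM in sh-Luci-3d, at 102, 108 and 133 in sh-PTBP1-3d and at 415, 450.0 and 462 in sh-PTBP1-7d. The order of the replicates within each group was the same as for MT2A. The sh-Luci-3d replicate 2 was highest of its group, and replicate 3 was highest in both sh-PTBP1 groups. IFIT1 was picked for its likeness over these same libraries, so this match is part of that choice and not a further observation. Among the members, r with MT2A was 0.996 for MT1X, 0.962 for MT1F, 0.895 for MTF1 and -0.828 for SLC30A1. These values describe 9 libraries that share the step from 3 to 7 dpi and are not independent points. MT1X shares 45.1% of its windows of 50 bases with other genes, MT2A among them. The part of shared reads in its r was not tested. No likeness is given for MT3, which was above 0 in 1 library only.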

How the data were processed

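Total RNA of U251 cells was sequenced in 9 libraries, 3 per group as the labels give them. The authors deposited 1 table of FPKM values, fragments scaled to transcript length and to the total mapped. They deposited the positions of assembled loci separately, and 0 of these loci lay over the metallothionein cluster. The submitters' processing notes name HISAT2 and GRCh38, while the quantifier, strand setting, read length and read totals are not given in the sources used here. The deposited FPKM values did not come in steps of whole reads, so no depth or counting interval could be given.

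Entries with a mean of at least 0.1 FPKM over the 9 libraries (15551) were tested in R 4.3.3 with limma 3.58.1 (trend) on log2(FPKM + 0.1), all 3 groups in 1 model, with Benjamini-Hochberg adjustment over all entries. The thresholds were an FDR of 0.05 at 3 dpi and 0.01 at 7 dpi, with a fold above 2. The script was tested on simulated data. Named were the 9 members, the other metallothionein genes in the table, PTBP1, in each list at most 4 genes past the thresholds of the comparison between the sh-PTBP1 groups by size, SLC39A10 and SLC30A2 as known targets of MTF1, and the 5 entries most like MT2A. The same was planned for MT3 and left out, since MT3 was above 0 in 1 library only. Other list genes were named after their values were seen. The members and the gene lists were chosen with earlier results of these data known, and the list of 20 genes used by every cell was added after the values were seen. Alternatives were other pseudocounts, filters, scalings, a length and GC correction, a replicate block and leaving out each library. Gene positions and coding sequences came from GENCODE v29 and promoters from RefSeq. Ratios of members were compared by 2-sided exact permutation tests.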

Additional observations from a re-analysis of the deposited data

How the results depend on the processing

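Over 21 alternatives, the number of members called stayed at 0 in the 3 dpi comparison and at 3 in sh-PTBP1-7d over sh-PTBP1-3d. For 7 dpi against sh-Luci-3d it was 3, or 2 with median-ratio scaling and without the sh-PTBP1-7d replicate 3. No member changed direction. Between the sh-PTBP1 groups the log2 differences ranged from 1.95 to 2.41 for MT1F, 1.60 to 1.95 for MT1X, 1.18 to 1.38 for MT2A, 0.66 to 0.92 for MTF1 and -0.30 to -0.12 for SLC30A1. With median-ratio scaling, 5 members passed the FDR alone in place of 4. Without the sh-PTBP1-3d replicate 3, MT1F, MT1X and MT2A were at 2.41, 1.91 and 1.35, and MT3 was not tested.

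Over all entries, a pseudocount of 1 gave 1255 calls in place of 2211 between the sh-PTBP1 groups and 1269 in place of 2271 against sh-Luci-3d. At 3 dpi the number was 2, and 0 to 59 over the alternatives, with 59 without the sh-Luci-3d replicate 3. Quantile normalization moved the share of calls that were higher from 61.1% to 49.3% against sh-Luci-3d. Scaling to TPM moved the median of all entries between the sh-PTBP1 groups from 0.092 to 0.195. The cause of these shifts was not tested.

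Same-numbered libraries did not deviate together (correlations -0.03 to 0.05), so the numbers give no pairing. With the replicate block the members called were still 3, 3 and 0, and at 3 dpi 0 entries were called. Depth is unknown, so values near 0 could not be given a detection limit.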

Other observations

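MT1HL1, a metallothionein-like gene outside the chromosome 16 cluster, was listed at 0.320 FPKM in the sh-PTBP1-7d replicate 1 and at 0 in the other 8 libraries. Of 20 genes used by every cell, a list added after the values were seen, 4 were called lower and 0 higher from sh-PTBP1-3d to sh-PTBP1-7d. This stood beside 14.2% of all entries called in either direction, and the 20 genes had a median log2 difference of -0.57. GAPDH, for example, was at -1.11 and EEF1A1 at -1.63. MT2A, which was at 17.4% of the mean GAPDH level in sh-PTBP1-3d, was at 91.1% of it in sh-PTBP1-7d.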
